A study of Mus musculus with 12 samples.

Results

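Mitochondrial ribosomal protein genes were followed through myogenic induction and Zfp143 knockdown in C2C12, an immortalised line of mouse myoblasts that stops dividing and fuses into myotubes when serum is withdrawn. All protein-coding genes whose symbol begins with Mrpl or Mrps and goes on with a number were taken, which gave 78 of the 78275 gene IDs measured: 49 genes named for the large subunit and 29 named for the small subunit. All 78 passed the filter on low counts, and the lowest estimated count of any of them in any library was 94.9. The data are 12 poly(A)-selected RNA libraries in 4 groups of 3. All cells were transfected with Lipofectamine 3000 in medium with 10% fetal bovine serum, with either a non-targeting control siRNA or an siRNA against Zfp143 (the mouse gene for ZNF143), a zinc-finger transcription factor. Uninduced cells were collected 24 hours later, and induced cells were then kept for 5 days in medium with 1% horse serum. Induced and uninduced groups thus differ in serum, in time since transfection and in differentiation together. Whether the libraries of one group stem from different cultures is not stated in the labels, so the p-values measure the spread between these libraries, which may be technical.

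The mitochondrial ribosome sits in the mitochondrial matrix and translates the few mRNAs of the mitochondrial genome, which encode hydrophobic core subunits of the respiratory chain and of ATP synthase. Its rRNAs come from the mitochondrial genome, while every one of its proteins is encoded in the nucleus, made in the cytosol and imported. Some of these proteins descend from bacterial ribosomal proteins and others are found only in mitochondrial ribosomes. Differentiating muscle is known for a growing demand for oxidative metabolism.

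Library totals lay between 13520879 and 19068306 estimated counts. 2 libraries stood apart. Replicate 1 of the induced Zfp143 siRNA cells was the shallowest at 13520879 counts, against 17895530 or more in the others, and had the lowest share of counts from mitochondrially encoded genes, 1.95%. In replicate 3 of the uninduced control these genes took 6.02% of all counts, against 2.63 to 3.95% in the other 10 libraries, and its scaling factor by the trimmed mean of M-values (TMM) was 0.799 against 0.928 to 1.12. In normalised counts (CPM, counts scaled to the library size times this factor), 60 of the 78 members were highest in this control library within its group. Its member levels were 0.784 to 2.54 times the mean of replicates 1 and 2, with a median of 1.33, so many results that use the uninduced control are also given without it. Zfp143 itself stood at 23.2, 27.8 and 39.8 CPM in uninduced control cells and at 12.2, 11.9 and 10.1 CPM after its siRNA, a log2 fold change of -1.41 ± 0.18 (SE, edgeR adjusted p = 6.12e-05). The groups do not overlap, but the size of that change leans on control replicate 3 at 39.8 CPM. After induction the 3 control libraries were at 19.7, 19.3 and 19.3 CPM and the 3 Zfp143 siRNA libraries at 14.7, 16.8 and 19.7 CPM, a difference of -0.18 ± 0.18 that did not pass the test (adjusted p = 0.646). All 12 myotube markers on the list used here rose with induction, and their summed level went from 5.16 to 5.81 CPM in uninduced control cells to 9617 to 12217 CPM in induced control cells, but reached only 3168 to 3813 CPM with Zfp143 siRNA. Of 7 myoblast markers 6 were tested and 5 rose with induction under either siRNA, their summed level going from 555 to 626 CPM in uninduced control cells to 2477 to 2918 CPM in induced ones. Of 7 fibroblast and smooth muscle markers, 5 were tested and all 5 rose with induction under either siRNA. Of 5 adipocyte markers 1 was tested, which rose under either siRNA, and the list summed to 278 to 298 CPM in uninduced and 381 to 449 CPM in induced control cells. Osteoblast and chondrocyte markers summed to 2413 to 4323 CPM in uninduced control cells, 5240 to 6166 CPM in uninduced Zfp143 siRNA cells and 1883 to 2254 CPM over both induced groups, and macrophage and leukocyte markers to 18.2 to 39.2 CPM over all libraries. Endothelial markers summed to at most 5.32 CPM in any library, Adgre1 of the macrophage list and Ibsp of the osteoblast list were at 0 in every library, and the part of other cell types in the results was not tested. In bulk RNA, fewer cells of a type and less RNA per cell cannot be told apart.

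Levels between genes were compared in TPM, the transcript abundance unit that divides counts by transcript length and fixes the library total. Averaged over the 12 libraries, large-subunit mRNAs spanned 5.70 to 283 TPM with a median of 44.2, and small-subunit mRNAs spanned 8.13 to 197 TPM with a median of 50.4. In all, 11 members were above 100 TPM and 3 were below 10 TPM. Mrpl33 and Mrpl42 led the large subunit at 283 and 242 TPM, and Mrps21 and Mrps18c led the small subunit at 197 and 135 TPM. At the other end stood Mrpl35 at 5.70 TPM and Mrpl57 at 9.90 TPM in the large subunit, and Mrps35 at 8.13 TPM and Mrps26 at 11 TPM in the small subunit. The balance between the subunits moved little: summed large-subunit TPM was 1.81 to 2.01 times summed small-subunit TPM in the 12 libraries, with a median of 1.89.

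Most of the mitoribosomal genes fell with induction. With control siRNA, 38 of 49 large-subunit genes and 19 of 29 small-subunit genes fell, Mrpl14 alone rose, and 20 members did not pass the test (edgeR's quasi-likelihood test, adjusted p under 0.05 over 15030 tested genes). Among all tested genes 30.9% fell and 33.2% rose in this comparison (64.1% called). The median log2 fold change was -0.62 for the large and -0.57 for the small subunit, beside 0.03 for all tested genes. With Zfp143 siRNA, which uses none of the same libraries, 35 large-subunit and 18 small-subunit genes fell and none rose, where 30.1% of all tested genes fell and 36.0% rose (66.1% called). The medians there were -0.65 and -0.55, beside 0.10 for all tested genes. Of the members, 53 are in the shortest of 4 length classes of tested genes, where the all-gene medians were -0.07 with control siRNA and -0.26 with Zfp143 siRNA. Of the members, 45 fell under both siRNAs, which is 78.9% of the 57 that fell with control siRNA and 84.9% of the 53 that fell with Zfp143 siRNA. The same overlap was not counted over all tested genes, so it cannot be called particular to the members. By subunit, the shared set held 31 large-subunit and 14 small-subunit genes. All 3 induced libraries lay below all 3 uninduced ones in CPM for 58 members with control siRNA and for 63 with Zfp143 siRNA. In TPM this held for only 25 and 21 members, while for 11 and 18 members all 3 induced libraries lay above. These counts were not made over all tested genes.

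**Figure D1:**
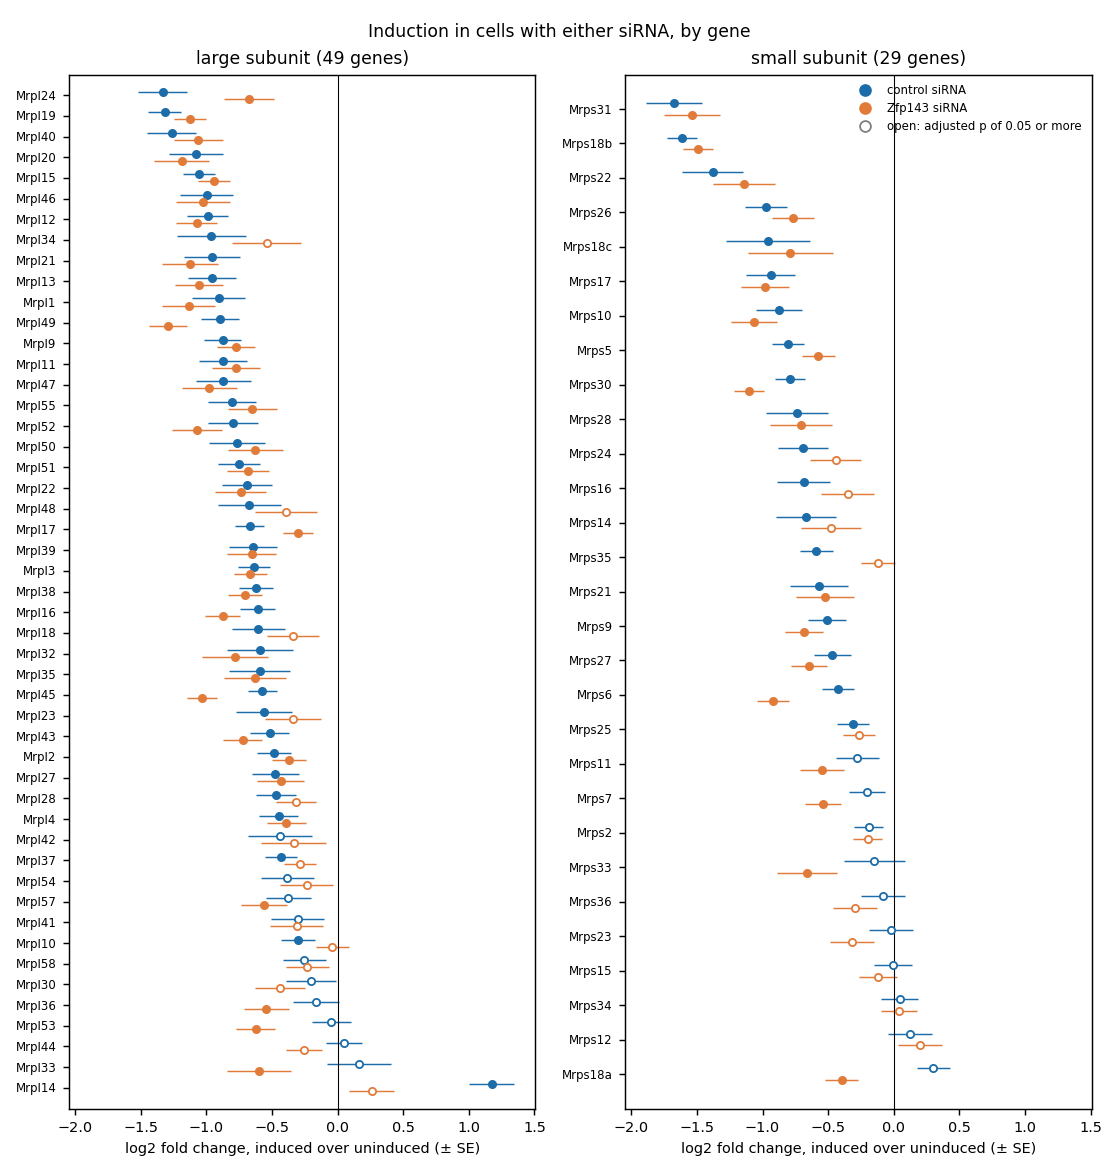
Log2 fold change of each mitoribosomal gene, induced over uninduced, with control siRNA (blue) and Zfp143 siRNA (orange), large subunit at left and small subunit at right; bars are ± SE, and open points did not pass an adjusted p of 0.05. Nearly all points lie left of 0, from -1.67 for Mrps31 to 1.17 for Mrpl14 with control siRNA.

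Without replicate 3 of the uninduced control, the control siRNA comparison kept its direction with fewer and smaller changes: 31 large-subunit and 14 small-subunit genes fell, 2 large-subunit genes rose (Mrpl14 and Mrpl33), and the medians were -0.48 and -0.37 beside 0.05 for all tested genes. The means compared with Zfp143 siRNA do not use that library, but the spread is shared by all groups, and without it 41 large-subunit and 22 small-subunit genes fell there. Of all 15030 tested genes, 4499 fell and 4987 rose with control siRNA without that library, and 4930 fell and 5670 rose with Zfp143 siRNA. The size of the fall also depended on the scale. Where counts were scaled by library size alone, the median of all tested genes moved to 0.21 with control siRNA and 0.35 with Zfp143 siRNA. Relative to it the large and small subunits lay at -0.64 and -0.56 with control siRNA and at -0.75 and -0.65 with Zfp143 siRNA. On that scale 26 large-subunit and 15 small-subunit genes fell with control siRNA, and 26 and 11 fell with Zfp143 siRNA. In either comparison 1 gene of each subunit rose. Of all tested genes, 3652 fell and 5715 rose with control siRNA, and 3371 fell and 6597 rose with Zfp143 siRNA.

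The subunit sums show the same contrast between scales. In TPM the large subunit summed to 3265, 3258 and 3131 in uninduced control cells and to 3305, 3015 and 2893 in induced control cells. These ranges overlap, and the ratio of the means was 0.954 ± 0.070 (SD, n = 3 per group); for the small subunit it was 0.917 ± 0.037. In CPM the large subunit summed to 2006, 1971 and 2869 in uninduced and to 1546, 1457 and 1294 in induced control cells, a ratio of 0.628 ± 0.151, and the small-subunit ratio was 0.655 ± 0.138. With Zfp143 siRNA the TPM ratios were 0.984 ± 0.066 and 0.986 ± 0.051, and the CPM ratios 0.629 ± 0.056 and 0.641 ± 0.043. The median of all tested genes also differed between the scales. In TPM, whose total is fixed, the median tested gene was higher in induced cells by 0.37 on the log2(TPM + 0.5) scale with control siRNA and by 0.60 with Zfp143 siRNA. Relative to that median, the large and small subunits lay at -0.52 and -0.45 with control siRNA and at -0.61 and -0.57 with Zfp143 siRNA; in CPM the same distances were -0.65 and -0.60, and -0.75 and -0.65. The members therefore fell relative to the median gene on both scales, while the ratios of their summed TPM lay between 0.917 and 0.986.

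**Figure D2:**
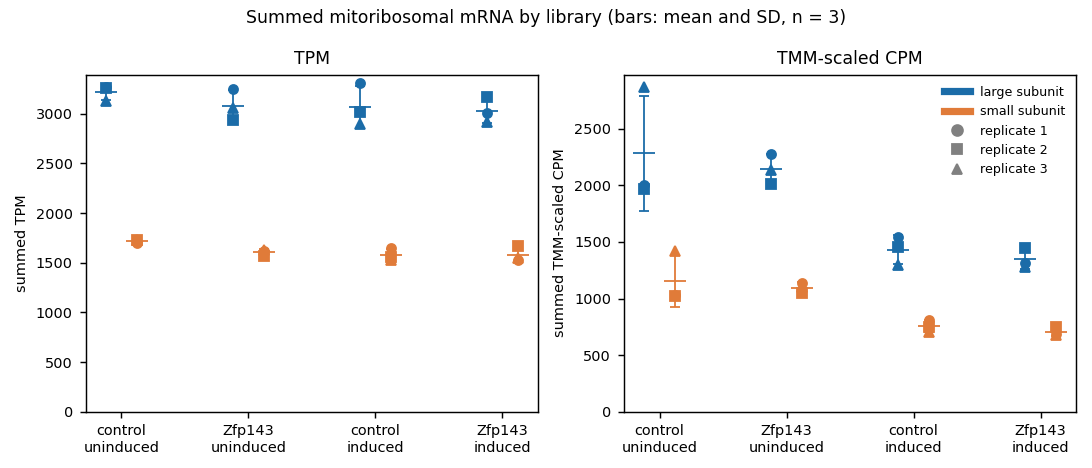
Summed level of the 49 large-subunit (blue) and 29 small-subunit (orange) genes in each library, in TPM at left and in CPM scaled by TMM factors at right; each point is a library, and bars are mean and SD of 3. The TPM sums are nearly level over the 4 groups, the CPM sums are lower in both induced groups, and replicate 3 of the uninduced control reaches 2869 CPM for the large subunit.

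Mrps18b, a small-subunit relative of bacterial protein S18, had the smallest p of any member. It stood at 69.6, 70.4 and 83.6 CPM in uninduced control cells and at 24.3, 24.7 and 23.9 CPM after induction, a log2 fold change of -1.62 ± 0.12 (adjusted p = 1.37e-08). With Zfp143 siRNA it went from 59.6, 57.9 and 59.7 CPM to 23.4, 20.1 and 19.6 CPM, a log2 fold change of -1.49 ± 0.12 (adjusted p = 4.22e-08). Its induced libraries lay far below its uninduced ones under either siRNA. Mrps31, a protein of the small subunit that has no bacterial counterpart, was at 49.9, 49.8 and 97.9 CPM uninduced and at 19.7, 22.1 and 20.2 CPM induced, a log2 fold change of -1.67 ± 0.21 (adjusted p = 7.92e-06) that was -1.27 without uninduced control replicate 3. With Zfp143 siRNA it fell by 1.54 ± 0.22 on the log2 scale.

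In the large subunit, Mrpl24, Mrpl19 and Mrpl15, all with bacterial counterparts, were among the members that fell most with control siRNA. Mrpl24, which lines the exit tunnel for the growing peptide, fell from 118, 129 and 223 CPM to 65.1, 64.0 and 57.4 CPM, a log2 fold change of -1.33 ± 0.19 (adjusted p = 2.15e-05) that was -0.99 without replicate 3. With Zfp143 siRNA it changed by -0.67 ± 0.19. Mrpl19 fell by 1.32 ± 0.12 on the log2 scale with control siRNA and by 1.12 ± 0.12 with Zfp143 siRNA, and Mrpl15 by 1.06 ± 0.12 and 0.94 ± 0.12. Mrpl49 and Mrpl45 started from a higher level in the Zfp143 siRNA cells than in control cells. Mrpl49, a protein specific to mitochondrial ribosomes, went from 71.5, 65.2 and 66.7 CPM to 28.4, 28.4 and 26.2 CPM with Zfp143 siRNA (log2 fold change -1.29 ± 0.15) and fell by 0.90 ± 0.15 with control siRNA. Mrpl45, which sits beside the tunnel exit at the inner membrane, fell by 1.03 ± 0.11 with Zfp143 siRNA and by 0.57 ± 0.11 with control siRNA. Mrps30, named for the small subunit but placed in the large one by structure, fell by 1.10 ± 0.12 with Zfp143 siRNA and by 0.79 ± 0.11 with control siRNA.

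The fall was seen in genes listed for 3 regions of the large subunit, and the lists need not hold every gene of a region. Over all tested genes 30.9% fell with control siRNA and 30.1% with Zfp143 siRNA. The genes for the stalk that recruits translation factors, Mrpl10, Mrpl11 and Mrpl12, all fell with control siRNA (3 of 3; 2 of 3 with Zfp143 siRNA). Mrpl12, the stalk protein that contacts the factors, was at 77.3, 70.2 and 93.0 CPM uninduced and at 44.3, 41.4 and 35.3 CPM induced, a log2 fold change of -0.99 ± 0.16 (adjusted p = 5.8e-05). All 6 genes listed for the central protuberance (Mrpl18, Mrpl38, Mrpl40, Mrpl46, Mrpl48 and Mrpl52) fell with control siRNA and 4 of 6 with Zfp143 siRNA. All 4 genes listed for the exit tunnel (Mrpl22, Mrpl23, Mrpl24 and Mrpl45) fell with control siRNA and 3 of 4 with Zfp143 siRNA. Without uninduced control replicate 3, Mrpl10, Mrpl18, Mrpl48 and Mrpl23 lost their calls with control siRNA (adjusted p = 0.0836, 0.0983, 0.186 and 0.218). The log2 fold change of Mrpl10 was then -0.26 in place of -0.30, while those of Mrpl18, Mrpl48 and Mrpl23 went from -0.60, -0.67 and -0.56 to -0.27, -0.24 and -0.24. Divided by origin, 26 of 30 large-subunit genes with a bacterial homologue and 12 of 19 without one fell with control siRNA (23 of 30 and 12 of 19 with Zfp143 siRNA). In the small subunit the counts with control siRNA were 12 of 18 and 7 of 10 (12 of 18 and 6 of 10 with Zfp143 siRNA), and the difference between these classes was not tested. Placing the proteins by structure, 39 of 51 large-subunit and 18 of 26 small-subunit genes fell with control siRNA.

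The genes that fell under neither siRNA numbered 13. They were Mrpl14, Mrpl30, Mrpl41, Mrpl42, Mrpl44, Mrpl54 and Mrpl58 in the large subunit and Mrps2, Mrps12, Mrps15, Mrps23, Mrps34 and Mrps36 in the small subunit. Some have other roles than elongation. Mrpl58 is a peptidyl-tRNA hydrolase that rescues stalled ribosomes, and it stood at 23.0, 20.5 and 32.4 CPM in uninduced control cells and at 22.8, 21.2 and 19.5 CPM in induced ones. Mrps36 is now known as a subunit of the 2-oxoglutarate dehydrogenase complex, and its uninduced control values of 12.2, 12.8 and 16.3 CPM overlapped the induced ones of 15.1, 11.2 and 12.6 CPM. Mrps12, the protein of the decoding centre, was at 14.6, 13.0 and 14.0 CPM uninduced and at 17.7, 15.2 and 12.4 CPM induced. For these 3 genes the induced and uninduced control libraries overlapped. A miss of the threshold does not show that a gene kept its level.

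**Figure D3:**
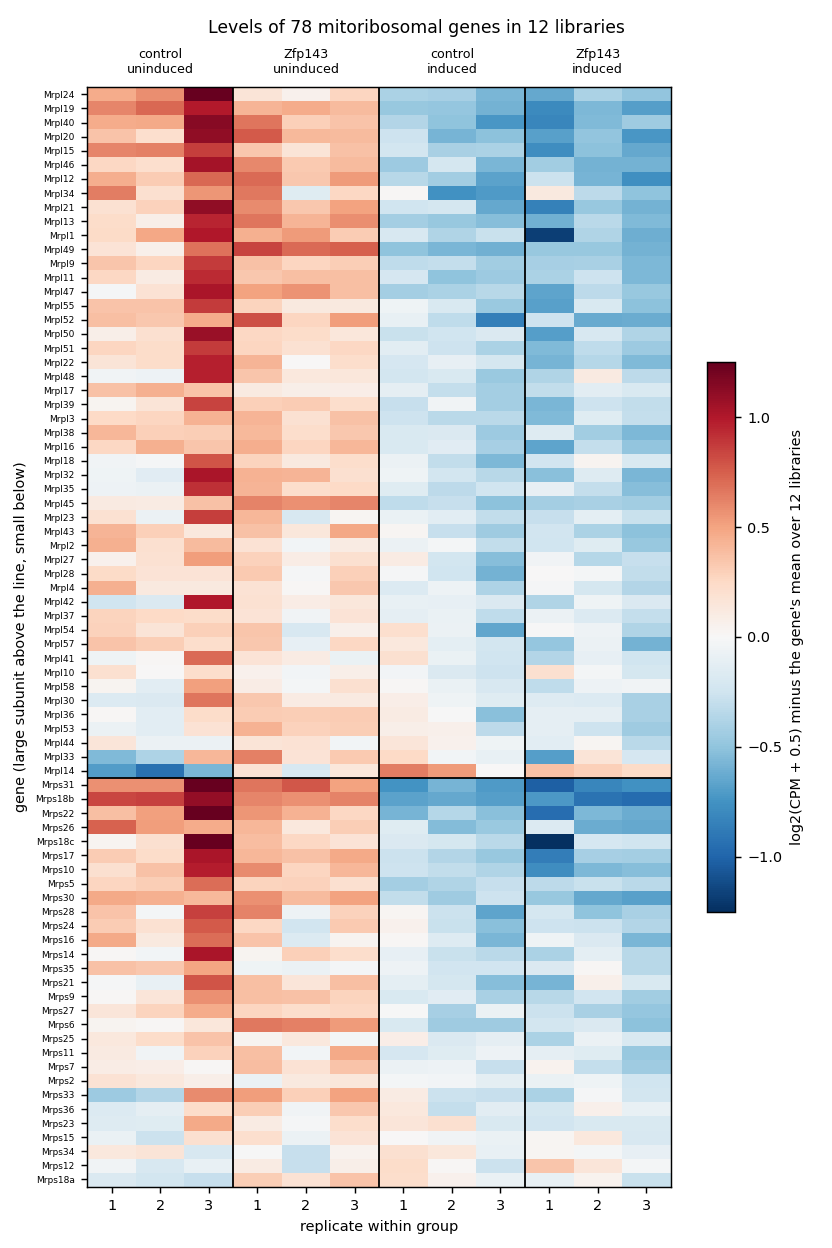
Log2(CPM + 0.5) of the 78 genes in the 12 libraries, each row centred on its mean over the libraries (red above, blue below); columns are the 3 replicates of each group, and rows are ordered by the induction log2 fold change with control siRNA within each subunit. Both induced groups are mostly blue, uninduced control replicate 3 is the reddest column, and Mrpl14, the last large-subunit row, runs the other way in control cells.

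By edgeR on TMM-scaled counts of all 12 libraries, Mrpl14 was the only member called higher on induction, and only with control siRNA. Mrpl14 encodes a core protein on the face of the large subunit that meets the small one, which is also where the assembly factor MALSU1 binds. It stood at 14.5, 12.2 and 15.8 CPM in uninduced control cells, at 26.9, 20.7 and 26.2 CPM in uninduced Zfp143 siRNA cells, at 37.2, 34.6 and 23.9 CPM in induced control cells and at 30.8, 29.4 and 28.2 CPM in induced Zfp143 siRNA cells. The uninduced control libraries were below the libraries of every other group. Induction raised it with control siRNA by a log2 fold change of 1.17 ± 0.17 (2.26-fold, adjusted p = 2.71e-05), and by 1.26 without uninduced control replicate 3. With Zfp143 siRNA the difference was 0.26 ± 0.17 (adjusted p = 0.187). In TPM its mean went from 50.8 ± 7.92 to 158 ± 21.4 (SD, n = 3) with induction in control cells, so it also rose on the scale that divides by length. On that scale it was not alone, as 11 members had all 3 induced control libraries above all 3 uninduced ones. That count was not made over all tested genes. Their median in TPM was itself higher in induced control cells, by 0.37 on the log2 scale.

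Zfp143 siRNA changed few mitoribosomal genes in uninduced cells. Of the 78 members, 10 were called (12.8%): 3 large-subunit and 2 small-subunit genes rose, and 3 large-subunit and 2 small-subunit genes fell. Over all tested genes 32.5% were called, 15.4% higher and 17.1% lower. Their median log2 fold change was -0.11 in the large and -0.12 in the small subunit, beside -0.04 for all tested genes. These medians changed sign without uninduced control replicate 3, to 0.08 and 0.14 beside 0.01. The count of members called then rose to 17, of which 13 were higher. Calls over all 15030 tested genes rose too, to 2918 higher and 2807 lower from 2311 and 2575 with all libraries. Without control replicate 2 the count of members was 6.

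The 5 genes that rose were Mrpl14, Mrps6, Mrps18a, Mrpl49 and Mrpl45. Mrpl14 rose by a log2 fold change of 0.80 ± 0.17 (1.74-fold, adjusted p = 0.00281). Mrps6, a protein of the small-subunit platform, was at 46.5, 45.9 and 50.1 CPM with control siRNA and at 72.3, 70.4 and 66.2 CPM with Zfp143 siRNA, a log2 fold change of 0.55 ± 0.12 (adjusted p = 0.00317). The groups were well apart. Mrps18a, another S18 relative, was at 24.9, 24.0 and 23.1 CPM against 35.2, 32.2 and 36.5 CPM, a log2 fold change of 0.53 ± 0.13 (adjusted p = 0.0058). Mrpl49 rose by 0.44 ± 0.14 (adjusted p = 0.0284) and Mrpl45 by 0.40 ± 0.11 (adjusted p = 0.0124), and Mrpl45 stood at 64.1, 63.7 and 76.6 CPM against 91.4, 88.4 and 90.5 CPM. Without replicate 3 of the control the 5 values were 0.89, 0.60, 0.51, 0.67 and 0.51.

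The 5 genes that fell were Mrpl24, Mrps35, Mrpl15, Mrpl19 and Mrps18b, and 2 of these calls were lost without control replicate 3. Mrpl24 was at 118, 129 and 223 CPM with control siRNA and at 96.0, 89.2 and 103 CPM with Zfp143 siRNA, a log2 fold change of -0.70 ± 0.19 (adjusted p = 0.0106). Without control replicate 3 it was -0.35 (adjusted p = 0.0224). The groups do not overlap, but the size of the change was set largely by that library. Mrps35, a protein specific to the mitochondrial small subunit, was at 27.1, 26.5 and 29.6 CPM against 20.0, 19.8 and 20.6 CPM, a log2 fold change of -0.46 ± 0.13 (adjusted p = 0.013), and -0.40 without replicate 3. Mrpl15 fell by 0.42 ± 0.12 (adjusted p = 0.0157). Mrpl19 and Mrps18b had log2 fold changes of -0.36 ± 0.12 and -0.33 ± 0.11 (adjusted p = 0.0366 and 0.0352), and without replicate 3 of the control they were at -0.23 and -0.24 and not called (adjusted p = 0.11 and 0.0849).

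**Figure D4:**
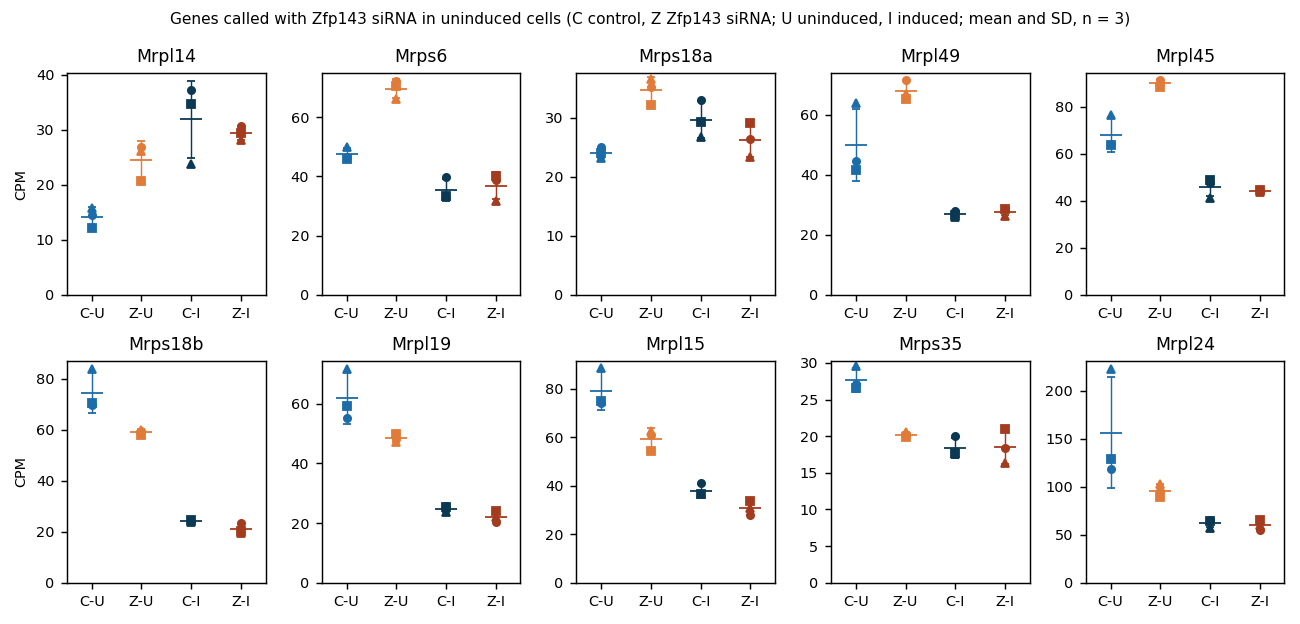
CPM of the 10 genes called with Zfp143 siRNA in uninduced cells, in the 12 libraries (circle, square and triangle are replicates 1, 2 and 3; bars are mean and SD of 3); C is control and Z is Zfp143 siRNA, U uninduced and I induced. Top row, the 5 genes that rose; bottom row, the 5 that fell, of which Mrpl24 has control replicate 3 at 223 CPM. The induced groups overlap in each panel but those of Mrpl15 and Mrps18b.

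Because the siRNA targets a promoter-binding factor, the promoters of the members were searched. RefSeq promoters on GRCm38.p6, reaching from 250 bases before to 50 bases after a start site, were found by symbol for 69 of the 78 members and gave 75 promoters. ZNF143 is known to bind a long element, searched here as its 5′ part and its 3′ part, which overlap in the letters CCCA; both strands were searched, and the strings were chosen with earlier results of these data known, after other spellings had been tried. The 5′ part was found in 5 of the 75 member promoters (6.67%) and in 1.47% of all 32851 promoters. The windows around these matches are shown because among the 69 matched members only these 5 hold that string, each 5′ to 3′ on the strand of its gene, with the 5′ part in capitals.
Mrpl24, chr3:87919383-87919443, plus strand: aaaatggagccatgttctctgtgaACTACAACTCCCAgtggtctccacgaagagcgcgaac
Mrpl34, chr8:71464699-71464759, plus strand: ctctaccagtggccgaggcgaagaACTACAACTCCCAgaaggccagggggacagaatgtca
Mrpl42, chr10:95501958-95502018, minus strand: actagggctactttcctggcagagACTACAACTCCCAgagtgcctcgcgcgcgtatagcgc
Mrpl50, chr4:49521190-49521250, minus strand: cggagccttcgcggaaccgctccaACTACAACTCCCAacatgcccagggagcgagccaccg
Mrps22, chr9:98601692-98601752, minus strand: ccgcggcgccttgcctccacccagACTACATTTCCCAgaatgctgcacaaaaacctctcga
All 5 matches run in the direction of the gene, and their first base lies 137, 203, 45, 143 and 49 bases before the start site, in the order of the list. In Mrpl50 and Mrps22 the match runs on into the 3′ part, which Mrpl11 also holds (3 of 75 promoters, 4%, against 1.88% of all promoters).

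With Zfp143 siRNA in uninduced cells, 1 of the 5 genes with the 5′ part fell, Mrpl24, described above. The others had log2 fold changes of -0.19 ± 0.26 for Mrpl34, -0.17 ± 0.24 for Mrpl42, -0.31 ± 0.21 for Mrpl50 and -0.46 ± 0.23 for Mrps22, none past the test. Without uninduced control replicate 3, Mrpl42 was at 0.36 and Mrpl50 at 0.080, the opposite sign, and Mrps22 was at -0.02. Among all tested protein-coding genes with the 5′ part, 87 of 394 (22.1%) fell and 26 rose, beside 17.1% lower over all tested genes. The latter also hold other gene types and genes without a promoter entry, so the shares have unlike bases. The share that fell was 23.4% for genes with the 3′ part, 24.6% with the YY1 string, 20.7% with the NRF1 string and 18.6% with the ETS string. Other elements were found more often in the members. The ETS string CCGGAAG stood in 26 of 75 promoters (34.7%) against 8.86% of all, the palindromic NRF1 string in 13 (17.3%) against 4.60%, and the YY1 string AAGATGGC in 12 (16.0%) against 2.75%. With control siRNA, 18 of the 26 genes with the ETS string, 9 of the 13 with the NRF1 string and 6 of the 12 with the YY1 string fell on induction. So did 4 of the 5 with the ZNF143 5′ part and 3 of the 3 with the 3′ part, and the parts share Mrpl50 and Mrps22. For Mrpl11, Mrpl24, Mrpl34, Mrpl50 and Mrps22, control replicate 3 was 1.69, 1.80, 1.09, 1.92 and 2.05 times the mean of replicates 1 and 2. In that comparison 57 of all 78 members (73.1%) and 30.9% of all tested genes fell. The 78 include 9 without a promoter entry. Whether a string marks out the members that fell was not tested. A match is only a run of letters in this window.

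After 5 days of induction no mitoribosomal gene was called with Zfp143 siRNA by edgeR, where 9.49% of all tested genes were, 3.73% higher and 5.77% lower. At an unadjusted p under 0.05 there were 2 members, 1 in each subunit, and DESeq2 and limma-voom also called 0. Log2 fold changes of the members lay between -0.41 and 0.24, with medians of -0.11 in the large and -0.10 in the small subunit, beside -0.03 for all tested genes. In this comparison the level of Zfp143 itself did not pass the test, while all 12 myotube markers were lower with the Zfp143 siRNA. Without both libraries that stand apart, uninduced control replicate 3 and the shallow replicate 1 of the induced Zfp143 siRNA cells, 2 small-subunit genes fell, Mrps18b and Mrps30. In that setting 1581 of all 15030 tested genes fell and 952 rose.

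The effect of the siRNA differed between induced and uninduced cells for 2 members, Mrpl14 and Mrps18a, by edgeR's interaction term (22.5% of all tested genes were called). The siRNA effect on Mrpl14 was lower in induced than in uninduced cells by a log2 difference of -0.92 ± 0.24 (adjusted p = 0.0133), and that on Mrps18a by -0.70 ± 0.18 (adjusted p = 0.012). Both calls held under each alternative setting run, with adjusted p between 0.00207 and 0.0444 for Mrpl14 and between 0.000776 and 0.0458 for Mrps18a. Mrps18a was at 32.9, 29.3 and 26.6 CPM in induced control cells and at 26.4, 29.1 and 23.3 CPM in induced Zfp143 siRNA cells, where the groups overlap. Seen from induction, it changed by 0.30 ± 0.13 with control siRNA (adjusted p = 0.0501) and by -0.40 ± 0.13 with Zfp143 siRNA (adjusted p = 0.0126). The number of members called here depended on the library that stands apart: without uninduced control replicate 3 it was 13, all with a negative difference. Over all 15030 tested genes that setting called 2227 higher and 2526 lower, against 1595 and 1780 with all libraries. The number of members was 5 without replicate 1 of the induced Zfp143 siRNA cells and 4 without replicate 3 of the induced control.

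**Figure D5:**
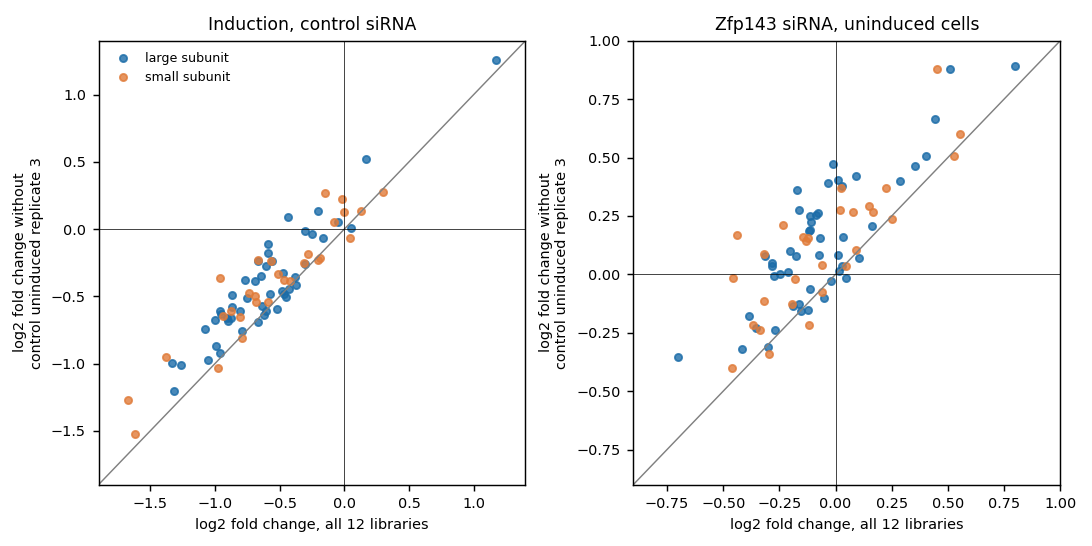
Log2 fold change of each member with all 12 libraries (horizontal axis) and without replicate 3 of the uninduced control (vertical axis), for induction with control siRNA at left and for Zfp143 siRNA in uninduced cells at right; large subunit in blue, small in orange, and the grey line marks equal values. Most points lie above the line, so the falls with induction are smaller without that library and the siRNA medians move from -0.11 and -0.12 to 0.08 and 0.14.

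The 3 paralogs of bacterial S18 all fell on induction with Zfp143 siRNA. On the log2 scale Mrps18a fell by 0.40 ± 0.13, Mrps18b by 1.49 ± 0.12 and Mrps18c by 0.79 ± 0.32. Differences between them were not tested. The size of the Mrps18c fall leans on the shallow replicate 1 of the induced Zfp143 siRNA cells. That library was at 13.6 CPM beside 29.6 and 28.8 CPM in replicates 2 and 3, against 38.8 CPM or more in the uninduced Zfp143 siRNA libraries. Mrps18a encodes a protein that structures place in the large subunit, while Mrps18b and Mrps18c belong to the small one. Mrps18a rose with Zfp143 siRNA in uninduced cells and did not pass the test on induction with control siRNA, whereas Mrps18b fell in both comparisons. These share the uninduced control libraries, and the siRNA call of Mrps18b was lost without replicate 3 of that control, as given above. Mrps18c was at 35.2, 39.5 and 94.9 CPM in uninduced control cells and at 30.3, 29.5 and 27.1 CPM in induced control cells, a log2 fold change of -0.96 ± 0.32 (adjusted p = 0.0167). That call rested on replicate 3 at 94.9 CPM, without which it was -0.37 (adjusted p = 0.169). With Zfp143 siRNA in uninduced cells Mrps18c had a log2 fold change of -0.44 ± 0.32 (adjusted p = 0.316), and 0.17 without that library.

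Partners of the mitoribosome were read from lists of named genes, whose counts stand beside the shares over all tested genes: 32.5% called with Zfp143 siRNA in uninduced cells and 64.1% and 66.1% on induction with control and Zfp143 siRNA. Of 5 subunits with other names, 4 fell with induction under either siRNA, and none passed the test between Zfp143 and control siRNA in uninduced or induced cells. They were Dap3, the GTP-binding protein of the small-subunit head (-0.58 ± 0.14 with control siRNA and -0.36 ± 0.14 with Zfp143 siRNA), Ptcd3 (-1.20 ± 0.21 and -0.93 ± 0.21), Chchd1 (-0.84 ± 0.25 and -0.87 ± 0.25) and Aurkaip1 (-0.47 ± 0.17 and -0.53 ± 0.17). Without uninduced control replicate 3 the control value of Aurkaip1 was -0.27 and lost its call (adjusted p = 0.126), and that of Chchd1 was -0.36. The list median with control siRNA was -0.58.

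Of 28 assembly and rRNA modification factors, 10 fell and 1 rose with induction in control cells (median -0.23), and 8 fell and 2 rose with Zfp143 siRNA (median -0.24). Rcc1l, a large-subunit assembly factor, fell by 1.22 ± 0.13 and 1.05 ± 0.13 on the log2 scale, and Gtpbp10, an assembly GTPase, by 1.75 ± 0.22 with control siRNA. With Zfp143 siRNA in uninduced cells 7 of the 28 fell and 1 rose (28.6% called, near the 32.5% over all tested genes), among them Gtpbp10 (-0.89 ± 0.22), Malsu1 (-0.68 ± 0.17) and the 12S rRNA methyltransferase Tfb1m (-0.84 ± 0.24); 0 passed in induced cells by edgeR, where 1 had an unadjusted p under 0.05. Without uninduced control replicate 3, Gtpbp10 was at -0.54 and Tfb1m at -0.63, the latter no longer called (adjusted p = 0.0514).

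Of 15 translation factors tested, 5 fell and 1 rose with induction in control cells: Lrpprc, which stabilises mitochondrial mRNAs, fell by 1.19 ± 0.11, and the elongation factor Tufm rose by 0.50 ± 0.13. With Zfp143 siRNA in uninduced cells 5 of the 15 fell and 0 rose (33.3% called, near the 32.5% over all tested genes, of which 17.1% fell), among them Lrpprc (-0.68 ± 0.11) and the recycling factor Gfm2 (-0.76 ± 0.13). Among 20 genes for charging mitochondrial tRNAs, 9 fell with induction in control cells, and 6 fell and 2 rose with the siRNA in uninduced cells (40% called); Gatc fell in both (-1.51 ± 0.13 and -0.88 ± 0.12). Of 21 transcription and RNA-processing genes, 10 fell and 2 rose with induction in control cells, Tfam, which packages mitochondrial DNA, by -1.14 ± 0.14. With the siRNA in uninduced cells 5 of these 21 fell and 2 rose (33.3% called, again near 32.5%). These comparisons share the uninduced control libraries, so their values stand side by side and are not compared.

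Among 10 regulators of nuclear genes for mitochondria, 6 fell and 1 rose with Zfp143 siRNA in uninduced cells. The coactivator Ppargc1a fell by 2.81 ± 0.24, Myc by 1.55 ± 0.14 and Zfp143, the target, as given above, and Esrra rose by 0.46 ± 0.17 (adjusted p = 0.0457, and 0.053 without uninduced control replicate 3). With induction in control cells 8 of 10 fell, Myc by 1.96 ± 0.14, Ppargc1a by 2.01 ± 0.22 and the GABP subunit Gabpb1 by 1.00 ± 0.12. The rRNAs of the mitoribosome, mt-Rnr1 and mt-Rnr2, are caught by poly(A) selection only through short tails, so their values depend on that capture. mt-Rnr1 was at 460, 403 and 1544 CPM in uninduced control cells, at 3150, 3047 and 2968 CPM with Zfp143 siRNA, at 227, 183 and 238 CPM in induced control cells and at 98.9, 167 and 138 CPM in induced Zfp143 siRNA cells. All uninduced Zfp143 siRNA libraries were above every other library, and replicate 3 was the highest of the controls. The siRNA comparison in uninduced cells gave 1.93 ± 0.38 (adjusted p = 0.00183), and 2.83 without that replicate. Of 15 mitochondrially encoded genes listed, 3 fell with induction in control cells and none rose (20% called). Over all tested genes 30.9% fell and 33.2% rose (64.1% called). The baseline holds uninduced control replicate 3, where mitochondrially encoded genes took 6.02% of counts, and these 3 calls are not given without it.

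Cytosolic ribosomal protein genes also fell with induction. Of 76 tested, 72 fell and none rose with control siRNA (median -1.22), and 75 fell with Zfp143 siRNA (median -1.41), against 57 and 53 of the 78 mitoribosomal genes with medians of -0.61 and -0.63.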

How the data were processed

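The reads were processed with fastp 1.0.1, STAR 2.7.11b and Salmon on GRCm39, per the submitters' processing notes; for the annotation release, the sources used here give none. The authors' deposited table holds, per gene and library, an estimated count summarised through tximport, a length and a TPM-type abundance, treated here as a score. Of 78810 lines, 535 repeated ones were dropped, which left 78275 gene IDs; 12 columns of FPKM were not used.

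Estimated counts were rounded and tested with edgeR 4.0.16 (R 4.3.3): genes were kept by filterByExpr with a minimum count of 10, scaled by TMM and fitted by robust quasi-likelihood over the 12 libraries with 4 group means. Calls need a Benjamini-Hochberg adjusted p under 0.05 over 15030 genes. Antisense and overlapping genes cannot be told apart in the unstranded libraries, and pseudogene rows exist for Mrpl23, Mrpl27, Mrpl48 and Mrps36. Members were named by a rule: in each comparison the 3 large-subunit and 2 small-subunit genes of smallest p in each direction, the 2 highest and 2 lowest in mean TPM of each subunit, the Mrps18 paralogs, Mrps30, Mrps36, Mrpl12, Mrps12, Mrpl45 and Mrpl58; of each pathway list, up to 3 genes of smallest p in each direction. Members named for a promoter string, a structural region or the lack of a call were chosen after their values were seen. Alternatives were DESeq2 1.42.0, limma-voom (limma 3.58.1), other scalings and filters, a replicate block and each library left out. Fits were tested on simulated data. The members and lists were chosen with earlier results of these data known.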

Additional observations from a re-analysis of the deposited data

Results flagged for a closer look

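The effect of Zfp143 siRNA differed between induced and uninduced cells, by edgeR's interaction term at an adjusted p under 0.05, for 2 members and for 17 of the pathway genes named by the rule. Over all tested genes 22.5% were called by this term. The rule names pathway genes by their smallest p, in this term too, so the 17 cannot be read as a share of the lists. Each value is the log2 effect in induced cells minus that in uninduced cells. For the members it was -0.92 (Mrpl14) and -0.70 (Mrps18a). Among assembly and rRNA modification factors it was 0.72 for Malsu1 and 1.06 for Tfb1m. Among genes for charging mitochondrial tRNAs it was 0.96 for Gatc, 0.52 for Iars2, 0.93 for Vars2, -1.33 for Lars2 and -0.54 for Yars2. Among transcription and RNA-processing genes it was 0.66 for Elac2, 0.98 for Polrmt, -0.92 for Grsf1 and -0.61 for Twnk. Among regulators it was 1.37 for Myc, 0.93 for Nrf1, 1.65 for Ppargc1a, -0.85 for Esrra and 1.22 for Zfp143, the target itself. For the mitochondrial rRNA mt-Rnr1 it was -2.61. All these genes were tested with the 12 libraries, and the level of Zfp143 did not pass the test between the siRNAs in induced cells. The 12 include uninduced control replicate 3, the highest of its group for Zfp143.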

How the results depend on the processing

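Of 3102 single-gene values under an alternative, over 156 results, 2876 kept their direction and side of the threshold, 210 lost their call, 9 gained one and 7 changed sign. The changes of sign were all with Zfp143 siRNA in uninduced cells: Mrpl34 from -0.42 to 0.00027 over the libraries left out, the latter without uninduced Zfp143 siRNA replicate 2, and Mrpl42 from -0.38 to 0.36, Mrpl50 from -0.49 to 0.080 and Mrps18c from -0.68 to 0.17, with the highest values without uninduced control replicate 3, or 0.35, 0.072 and 0.16 without that library and induced Zfp143 siRNA replicate 1, an alternative added after seeing the data. None of these 4 was called with all libraries. Leaving out 1 library in turn, the number of members called ranged from 6 to 17 with siRNA in uninduced cells, from 0 to 0 in induced cells, from 45 to 58 for induction with control siRNA, from 42 to 63 with Zfp143 siRNA and from 2 to 13 for the interaction. Without both libraries that stand apart it was 22 with siRNA in uninduced cells, 2 in induced cells and 18 for the interaction. Calls over all 15030 tested genes were then 3484 higher and 3579 lower, 952 and 1581, and 2752 and 3013, in the same order. The interaction count of members was also 5 with DESeq2, 4 without a filter on low counts, 6 with a transcript length offset and 4 with limma-voom. The cause was not tested. The ratio of summed levels, induced over uninduced control, was 0.628 (large) and 0.655 (small) in CPM and 0.721 and 0.751 as a share of counts. The labels number the replicates but do not say that a number marks a shared culture: correlations of deviations were -0.0963 to 0.306 between same-numbered libraries and -0.279 to 0.249 between others, and 5 of 12 libraries correlated best with their own number. With the replicate number as a block, the counts of members called were 10, 0, 57, 55 and 2, in the order above. The shallowest library held 13520879 counts, and the lowest member count was 94.9, so counting error is widest for such members.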

Other observations

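Several members lie back to back with another gene. On GRCm38.p6, 26 members had a start site on the opposite strand within 1000 bases of their own. Of 22 such neighbours that were tested and are no members, 8 fell and 3 rose with induction in control cells, and 2 fell and 2 rose with Zfp143 siRNA in uninduced cells. Over all tested genes 30.9% fell and 33.2% rose in the first comparison, and 17.1% fell and 15.4% rose in the second. Twnk, the mitochondrial DNA helicase, starts 116 bases from Mrpl43 and fell with induction (log2 fold change -0.89). Mitd1 starts 66 bases from Mrpl30 and rose (1.29). Mrpl46 and Mrps11, one gene of each subunit, share a gap of 41 bases at chr7:78783090-78783130, shown on the plus strand, the strand of Mrps11, from RefSeq.
Mrpl46 and Mrps11 gap: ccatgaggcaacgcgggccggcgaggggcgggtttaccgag
With control siRNA, Mrpl46 went from 15.9, 15.4 and 27.7 CPM to 9.52, 11.2 and 8.71 CPM on induction (log2 fold change -0.998 ± 0.20, adjusted p = 0.000594). The size of that change leans on uninduced control replicate 3, which was 1.77 times the mean of replicates 1 and 2. Mrps11 went from 14.3, 12.7 and 16.2 CPM to 11.3, 11.8 and 12.5 CPM (-0.28 ± 0.17, adjusted p = 0.156). For both genes the 3 induced libraries lay below the 3 uninduced ones. With Zfp143 siRNA both fell, Mrpl46 by 1.02 ± 0.21 and Mrps11 by 0.55 ± 0.17 on the log2 scale (edgeR adjusted p = 0.000513 and 0.00927).

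Members have short transcripts, with 53 of 78 in the shortest of 4 equal length classes of tested genes (up to 1354 bases). In that class the median log2 fold change with induction in control cells was -0.07 over all genes and -0.52 over members. In the other 3 classes, from shorter to longer, it was 0.08, 0.01 and 0.08 over all genes, and -0.64, -0.75 and -0.81 over 11, 9 and 5 members. Without uninduced control replicate 3 the members' medians in the 4 classes were -0.38, -0.38, -0.58 and -0.66. With Zfp143 siRNA the medians of all genes were -0.26, 0.02, 0.09 and 0.44 from the shortest to the longest class, and those of the members -0.55, -0.63, -0.78 and -0.58, so the distance was smallest in the shortest class, which holds most members.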
